A study of Mus musculus with 8 samples.

Results

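The 8 genes described here encode scaffold proteins of the sarcomere and of its attachment sites: the M-band proteins Myom1, Myom2 and Myom3, the giant filament proteins titin (Ttn) and nebulin (Neb), the Xin-repeat proteins Xirp1 and Xirp2, and the nebulin-related anchoring protein Nrap. They were chosen by name, with earlier results of these arrays known. Each was measured by 1 probe set annotated to a single gene symbol, so that no choice between probe sets was needed, and they are 8 of 19938 genes measured in the same way. No member was left out by a filter on low values.

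Arrays were made from the soleus, a postural leg muscle rich in slow fibres, of male mice aged 5 months. The 4 Ts65Dn mice, a model of Down syndrome, hold a small additional chromosome that brings the distal part of mouse chromosome 16 and the centromeric part of chromosome 17 to 3 copies; the chromosome 17 piece lies outside the region that corresponds to human chromosome 21. The 4 wild-type mice (WT) were controls from the colony, of the B6EiC3SnF1/J strain, a mixed B6 and C3H background. Each mouse gave 1 array, and the muscles of both groups were taken in the basal state under anaesthesia. None of the 8 members lies in a trisomic segment. Myom1 is on chromosome 17, but in the RefSeq gene order 1677 annotated genes separate it from Pde10a, the last gene of the trisomic end.

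In a sarcomere, titin spans from the Z-disc to the M-band and acts as a molecular spring, while nebulin runs along the thin filament. The M-band holds the thick filaments in register, with myomesin crosslinking myosin and the C-terminal end of titin. Myom1 encodes myomesin, present in striated muscle fibres in general. Myom2 encodes M-protein, which in mouse muscle is typical of fast fibres and the heart, and Myom3 encodes another isoform, found in a subset of fibres. Xirp1 and Xirp2 encode proteins that bind actin filaments through Xin repeats and are known at cell junctions, at myotendinous junctions and, for Xirp1, at sites of fibre damage. Nrap is a LIM-domain protein with nebulin-like repeats, known at the myotendinous junction and in assembling myofibrils.

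The upstream sequences that the members share are shown first. Of the paralogues Myom1 and Myom3, Myom3 was called below and Myom1 was not, but their difference in response did not pass after adjustment. Whether these sequences bear on the levels was not tested. RefSeq promoter sequences of assembly GRCm38.p6 were matched for 5 members, Myom1, Myom3, Ttn, Xirp2 and Nrap, and not for Myom2, Neb and Xirp1. The 250 bases before the gene start were searched on both strands. The longest run shared by Myom1 and Myom3 was 13 bases long and stood in 2 of 32851 promoters, those of these 2 genes. As the run was chosen from these 2 promoters, it was bound to stand in at least 2. It is in capitals in the following stretches of 63 bases, from chr4:135759651-135759713 on the plus strand for Myom3, and from chr17:71019407-71019469 on the plus strand for Myom1.
Myom3: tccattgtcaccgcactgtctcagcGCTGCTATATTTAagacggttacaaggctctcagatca
Myom1: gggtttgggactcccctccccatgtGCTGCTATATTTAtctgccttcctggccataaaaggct
The run began 39 bases before the start of Myom3 and 125 bases before that of Myom1. Among the other pairs of these promoters the longest shared run was 8 to 11 bases.

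The motif of MEF2, a family of transcription factors that bind A/T-rich elements of many muscle genes, was matched in 3 of the 5 members and in 2.92% of all promoters of this length. The match of Myom3 overlaps the shared run, while Myom1 differed from the motif at 1 base, as did Nrap. The share of all promoters that come within 1 base of the motif was not computed. The matches of Xirp2 and Ttn are in capitals in these stretches of 60 bases, from chr2:67445903-67445962 on the plus strand for Xirp2 and from chr2:76982679-76982738 on the minus strand for Ttn.
Xirp2: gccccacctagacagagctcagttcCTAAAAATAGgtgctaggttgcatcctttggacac
Ttn: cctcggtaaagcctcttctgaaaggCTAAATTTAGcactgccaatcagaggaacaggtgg
The E-box CAGCTG, an element that myogenic factors of the MyoD family can bind, was matched in Nrap alone of the 5 members and in 13.0% of all promoters. These are matches of letters and were not set against any binding data.

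Values are log2 RMA values of gene-level Affymetrix arrays, a scale on which higher is brighter and a difference of 1 is a doubling of signal. Array medians were 4.23 to 4.29 in Ts65Dn and 4.37 to 4.56 in WT, and the interquartile ranges of the arrays were 3.01 to 3.12 in Ts65Dn and 2.62 to 2.93 in WT. The medians and the interquartile ranges of the groups did not overlap. WT arrays 2 and 3 had the narrowest ranges, 2.74 and 2.62. The median log2 fold change was -0.10 over all genes and 0.11 over genes above the median level, where all members lie, and centring each array on its median moved the first value to 0.10. Each member is therefore also given relative to the 100 genes, members excluded, that lay nearest to it in mean level, and such values are called level-matched. The 6 muscle fibre markers averaged 11.67 to 11.80 in Ts65Dn arrays and 11.64 to 11.70 in WT arrays (log2), and 5 heart muscle markers 5.11 to 5.37 in Ts65Dn arrays and 5.29 to 5.50 in WT arrays. In a whole muscle, fewer cells of a type and less RNA per cell cannot be told apart. The precision is limited by the 4 arrays per group.

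The comparison asked whether these scaffold genes differed between Ts65Dn and WT soleus. Myom2, Myom3 and Xirp2 were higher in Ts65Dn, by 2.13-fold, 1.92-fold and 1.49-fold, and passed at an adjusted p under 0.05 (limma, Benjamini-Hochberg over all genes). Xirp1 had a fold change of 2.27 and did not pass. Myom1, Ttn, Neb and Nrap had fold changes of 1.11 to 1.24 and did not pass. All 8 fold changes were above 1, beside 39.2% of all genes and 60.7% of the genes above the median level. Of all genes, 2.32% were called higher, and 4.26% of the genes above the median level were, beside 3 of the 8 members. No member was called lower, beside 2.94% of all genes. In 4 members, the 3 called genes and Xirp1, every Ts65Dn array lay above every WT array, which held for 6.81% of all genes and for 12.4% of those above the median level.

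**Figure D1:**
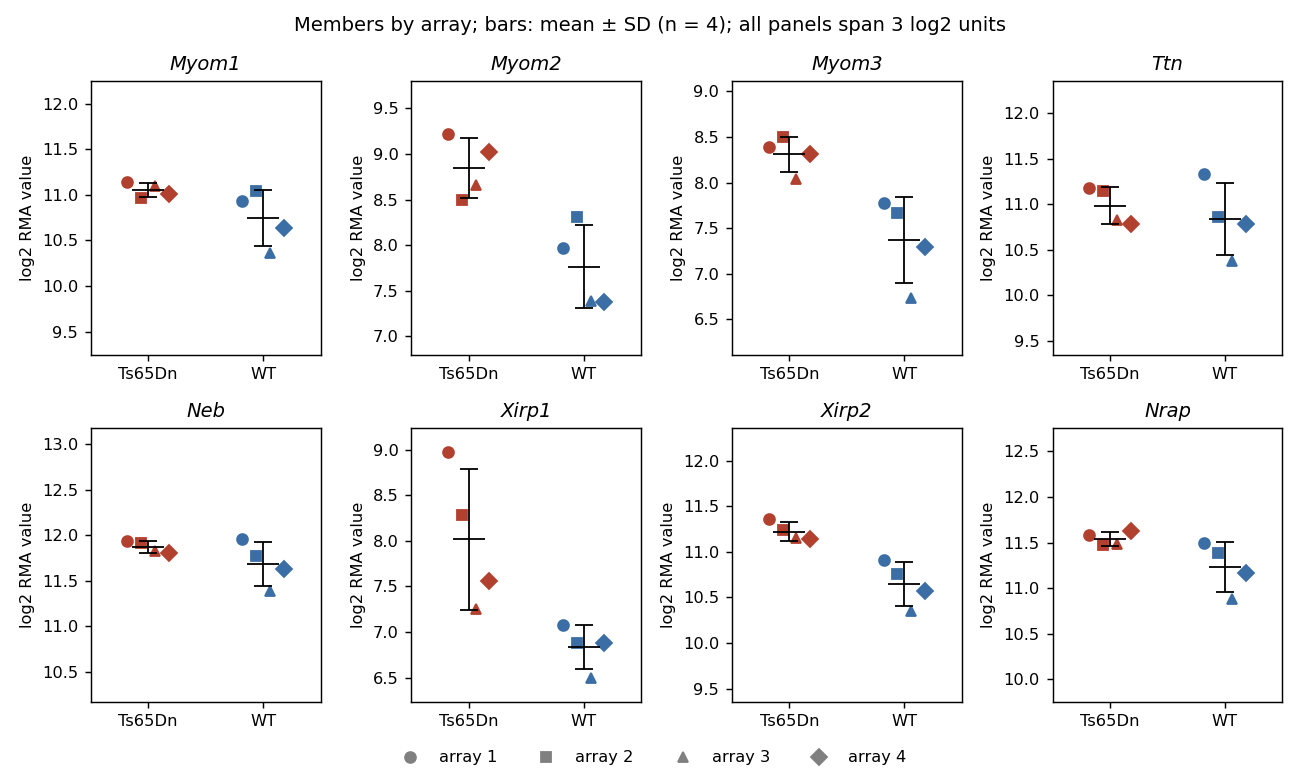
Log2 RMA value of each member (vertical axis; each panel spans 3 log2 units) in the 4 Ts65Dn arrays (left, red) and the 4 WT arrays (right, blue), with marker shape giving the array number and black bars the mean ± SD. The groups do not overlap for Myom2, Myom3, Xirp1 and Xirp2, and overlap for Myom1, Ttn, Neb and Nrap.

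Among the M-band genes, Myom2, the M-protein gene, was at 9.22, 8.49, 8.66 and 9.02 in Ts65Dn arrays 1 to 4, against 7.97, 8.31, 7.39 and 7.38 in WT arrays 1 to 4 (log2). All Ts65Dn arrays were above all WT arrays, and WT array 2 came closest, 0.19 below the lowest Ts65Dn array. The means were 8.85 ± 0.33 in Ts65Dn and 7.76 ± 0.46 in WT (SD, n = 4 each), a log2 fold change of 1.09 with a 95% interval of 0.57 to 1.60 and a limma adjusted p of 0.0456. The 100 genes nearest in level had a median log2 fold change of 0.26, and 2 of them had a larger one than Myom2. The level-matched log2 difference was 0.86 (limma adjusted p = 0.102), and WT array 2, at 8.50, then lay above Ts65Dn array 2, at 8.37.

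Myom3 was at 8.39, 8.50, 8.04 and 8.31 in Ts65Dn arrays 1 to 4, against 7.77, 7.67, 6.73 and 7.30 in WT arrays 1 to 4 (log2). The groups were apart by 0.27, and the WT arrays spread over 1.04, more than the 0.45 of the Ts65Dn arrays. The log2 fold change was 0.94 with a 95% interval of 0.47 to 1.42 and a limma adjusted p of 0.0458. Genes of like level had a median log2 fold change of 0.39, so that the level-matched difference was smaller, 0.58 on the log2 scale (limma adjusted p = 0.119), and 1 of the 100 exceeded Myom3.

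Myom1, the gene of the general isoform, was at 11.14, 10.97, 11.10 and 11.00 in Ts65Dn arrays 1 to 4, against 10.94, 11.04, 10.36 and 10.64 in WT arrays 1 to 4 (log2). WT arrays 1 and 2 were close to the Ts65Dn arrays, and arrays 3 and 4 were lower. Its log2 fold change was 0.31 with a 95% interval of -0.04 to 0.65 (limma adjusted p = 0.180). The 100 genes nearest in level had a median log2 fold change of 0.08, and 9 of them had a larger one than Myom1. The level-matched log2 difference was 0.24 (limma adjusted p = 0.376).

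Whether the isoforms differed in response was tested on differences within each array, which centring of the arrays cannot move. Over 5 pairs of members, p-values come from exact permutation of the group labels (two-sided, 70 splits), with Benjamini-Hochberg adjustment over the 5. Myom2 minus Myom1 was -2.20 ± 0.29 in Ts65Dn and -2.98 ± 0.21 in WT (log2, SD, n = 4 each), a difference of 0.78 with all 4 Ts65Dn arrays above WT (exact permutation p = 0.0286, the lower limit for 4 against 4 arrays; adjusted 0.0714). Myom3 minus Myom1 differed by 0.64 between the groups, again with all 4 Ts65Dn arrays above WT (exact permutation p = 0.0286, adjusted 0.0714). Neither passed after adjustment. In level-matched values Myom3 minus Myom1 differed by 0.34 with 3 of the 4 Ts65Dn arrays above WT (exact permutation p = 0.0857, adjusted 0.214), and Myom2 minus Myom1 by 0.62 with all 4 above. Myom2 minus Myom3 differed by 0.14 (exact permutation p = 0.657, adjusted 0.743), with 2 of the 4 Ts65Dn arrays above WT, and by 0.28 in level-matched values.

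Of the giant filament genes, Ttn was at 11.18, 11.14, 10.83 and 10.78 in Ts65Dn arrays 1 to 4, against 11.33, 10.86, 10.37 and 10.79 in WT arrays 1 to 4 (log2). WT array 1 was the brightest of all 8 and WT array 3 the dimmest, so that the Ts65Dn arrays lay within the WT range. The log2 fold change was 0.15 with a 95% interval of -0.28 to 0.57 (limma adjusted p = 0.596), close to the median of 0.08 of genes of like level. The level-matched log2 difference was 0.07 (limma adjusted p = 0.837).

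Neb was at 11.93, 11.92, 11.83 and 11.81 in Ts65Dn arrays 1 to 4, against 11.96, 11.77, 11.39 and 11.63 in WT arrays 1 to 4 (log2). The Ts65Dn arrays spread over 0.12 and the WT arrays over 0.57, with the highest value again in WT array 1. The log2 fold change was 0.18 with a 95% interval of -0.12 to 0.49 (limma adjusted p = 0.341), and the level-matched log2 difference was also 0.18 (limma adjusted p = 0.460). Ttn minus Neb differed by -0.04 between the groups (exact permutation p = 0.743, adjusted 0.743). Neb lies above 99.7% of all genes in mean level and Ttn above 98.8%, where genes of like level had median log2 fold changes of 0.02 and 0.08.

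Of the Xin-repeat genes, Xirp2 was at 11.36, 11.24, 11.16 and 11.14 in Ts65Dn arrays 1 to 4, against 10.91, 10.76, 10.35 and 10.57 in WT arrays 1 to 4 (log2). The groups were apart by 0.23, about as much as the whole spread of the Ts65Dn arrays. The log2 fold change was 0.58 with a 95% interval of 0.27 to 0.89 and a limma adjusted p of 0.0475. Genes of like level had a median of 0.08, and 1 of the 100 had a larger fold change. The level-matched log2 difference was 0.50 (limma adjusted p = 0.0768), and Xirp2 was the 1 member whose groups stayed apart in level-matched values, beside 6.25% of all genes.

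Xirp1 was at 8.97, 8.28, 7.25 and 7.56 in Ts65Dn arrays 1 to 4, against 7.08, 6.88, 6.50 and 6.88 in WT arrays 1 to 4 (log2). Ts65Dn arrays 1 and 2 were far above WT, while array 3 was 0.17 above the highest WT array. The means were 8.02 ± 0.77 in Ts65Dn and 6.84 ± 0.24 in WT (SD, n = 4 each), a log2 fold change of 1.18 with a 95% interval of 0.48 to 1.89 (limma adjusted p = 0.0532, unadjusted p = 0.00372). The level-matched log2 difference was 0.76 (limma adjusted p = 0.197), with Ts65Dn array 3, at 7.06, inside the WT range. Xirp2 minus Xirp1 was 3.21 ± 0.67 in Ts65Dn and 3.81 ± 0.09 in WT, a difference of -0.61 (exact permutation p = 0.143, adjusted 0.238). This difference was -0.27 in level-matched values.

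Nrap was at 11.58, 11.48, 11.48 and 11.62 in Ts65Dn arrays 1 to 4, against 11.50, 11.38, 10.88 and 11.16 in WT arrays 1 to 4 (log2). The Ts65Dn arrays lay close together, and WT array 1 lay just inside their range. The log2 fold change was 0.31 with a 95% interval of -0.01 to 0.63 (limma adjusted p = 0.157), beside a median of 0.03 for genes of like level, of which 3 of 100 had a larger one. The level-matched log2 difference was 0.29 (limma adjusted p = 0.266).

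**Figure D2:**
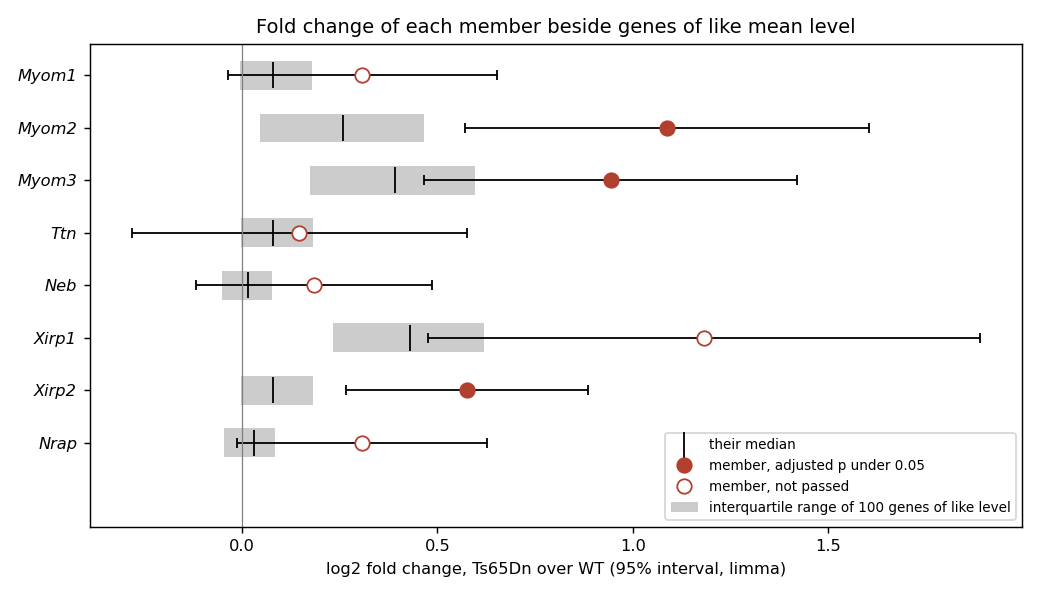
Log2 fold change of Ts65Dn over WT (horizontal axis) for each member, with its 95% interval from limma; filled circles passed at an adjusted p under 0.05. Grey bars are the interquartile range and black ticks the median over the 100 genes nearest in mean level, and each member lies to the right of its tick, with Ttn at 0.15 against 0.08 and Myom2 at 1.09 against 0.26.

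The 3 calls lay close to the threshold, as all calls in this comparison did, the smallest limma adjusted p over all genes being 0.0449. The calls of Myom2, Myom3 and Xirp2 were lost with any 1 Ts65Dn array or WT array 2 or 3 left out and with level matching. Without WT arrays 2 and 3 together, the log2 fold changes were 1.18 for Myom2, 0.78 for Myom3, 1.04 for Xirp1 and 0.49 for Xirp2, with limma adjusted p-values of 0.174 to 0.277.

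**Figure D3:**
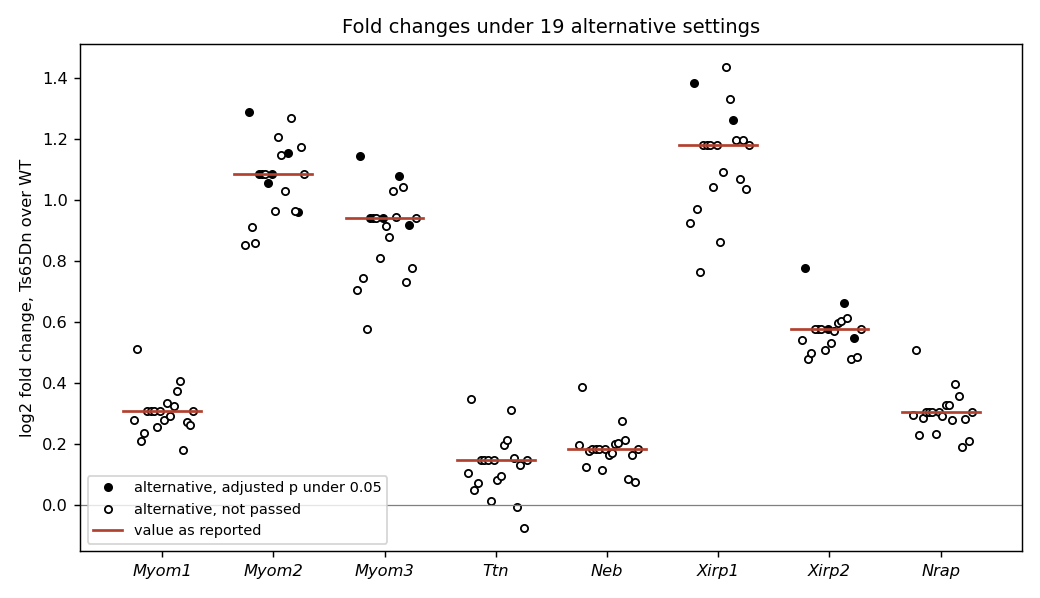
Log2 fold change of Ts65Dn over WT (vertical axis) of each member under 19 alternative settings; filled circles passed at a limma adjusted p under 0.05 and the red line is the value as reported. Myom2 stays between 0.85 and 1.29 and Xirp2 between 0.48 and 0.78, while most circles are open and Ttn reaches below 0.

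Across arrays the members other than Xirp1 varied together within the groups. WT array 3 was the lowest array for 7 of the 8 members, and WT array 4 for Myom2. Over genes above the median level, WT array 3 was the lowest array for 33.4%. In level-matched values WT array 3 was the lowest for 4 members and WT array 4 for the other 4, and both arrays were below the member's own mean for all 8. Ts65Dn arrays 1 and 2 were above it for all 8. WT array 2 was above it for 6 members, as many as Ts65Dn arrays 3 and 4. With the group means taken out of the level-matched values, the 21 pairs of members other than Xirp1 had Pearson's r of 0.41 to 0.90 over the 8 arrays, with a median of 0.82, and the 7 pairs with Xirp1 had 0.05 to 0.50. These correlations are descriptive, and the points share arrays and RNA samples. They were not computed for pairs of other genes, so whether they are particular to the members was not tested.

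**Figure D4:**
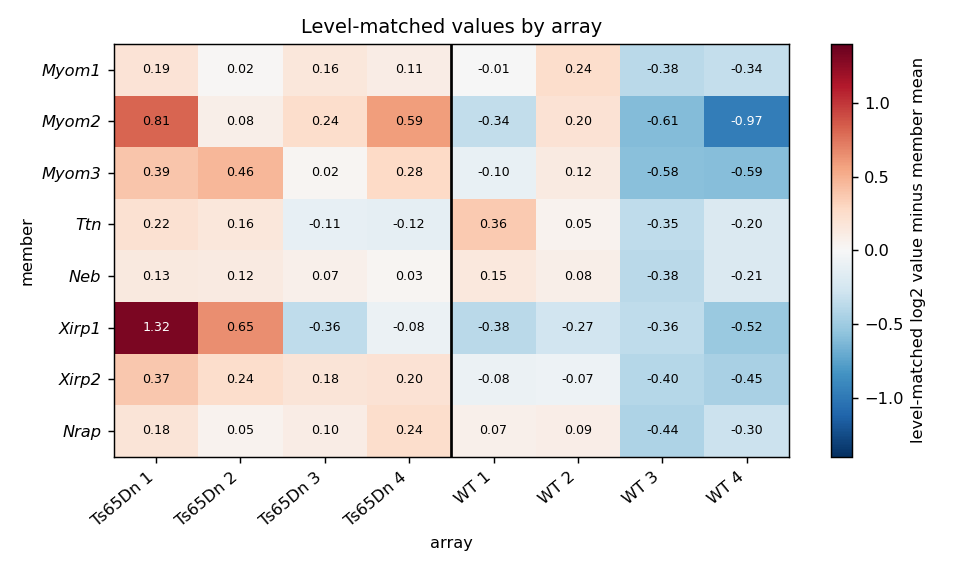
Level-matched log2 value of each member (rows) in each array (columns, Ts65Dn left of the line and WT right of it) minus the member's mean over the 8 arrays; red is above and blue below it. WT 3 and WT 4 are blue in every row, and Xirp1 in Ts65Dn 1, at 1.32, is the strongest deviation.

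The genes most like each member were sought among 9961 other genes above the median level, by Pearson's r of level-matched values over the 8 arrays, and are given as a description. For Myom1 these were Pde4dip (r = 0.968) and Foxj2 (0.966), and for Myom2 Ccni (0.971) and Slc25a17 (0.953). Myom3 was followed most closely by Slfn5 (0.973) and Camk2d (0.970), a subunit of a calmodulin-dependent kinase, which was itself called higher by 1.18 on the log2 scale (limma adjusted p = 0.0456). For Ttn they were Hdac1 (0.972) and Zfp52 (0.966). Neb was followed by Cmya5 (0.982), the gene of myospryn, a muscle protein of the sarcomere, and Plrg1 (0.979). For Xirp1 they were Dok5 (0.975) and Atp5j (0.953), for Xirp2 Anxa2 (0.973) and Maged2 (0.973), and for Nrap Glg1 (0.992) and Lclat1 (0.980). Anxa2, a membrane-binding annexin, was called higher, by 1.43 on the log2 scale (limma adjusted p = 0.0456), as was Lclat1, at 1.56 (limma adjusted p = 0.0481). The values of r include the group difference, so genes close to a called member tend to differ between the groups too. The closest of 9961 genes over 8 arrays can reach a high r by chance.

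Partners of the members were described by 5 lists, chosen by name and read against a median log2 fold change of 0.11 for genes above the median level. Of all genes, 34.8% had an unadjusted p under 0.05, and of those above the median level 37.8%. The list of partners at attachment sites, where filamin, vinculin and integrins link actin to the membrane, held 14 measured genes. Fold changes were positive for 10 of them and 1 passed as higher. The median log2 fold change was 0.24, and 0.12 in level-matched values. The called gene was Vcl, vinculin, at 6.84, 6.82, 6.39 and 6.87 in Ts65Dn arrays 1 to 4, against 6.56, 5.18, 5.42 and 5.56 in WT arrays 1 to 4 (log2 fold change 1.05, limma adjusted p = 0.0489). WT array 1 lay above Ts65Dn array 3, so the groups overlapped.

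The list of thin filament length and nebulin partners held 14 genes, 11 with a positive fold change, of which 2 passed as higher, and its median was 0.20, and 0.11 in level-matched values. Tmod1, tropomodulin 1, which caps the pointed end of the thin filament, was at 9.14 ± 0.06 in Ts65Dn and 8.21 ± 0.20 in WT (log2, SD, n = 4 each), 0.93 higher on the log2 scale (limma adjusted p = 0.0449; level-matched 0.72). Actc1, the cardiac actin gene, was at 9.79 ± 0.42 in Ts65Dn and 8.61 ± 0.46 in WT (log2, SD, n = 4 each), 1.18 higher on the log2 scale (limma adjusted p = 0.0456). The groups did not overlap for either gene.

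Of 13 measured M-band and titin kinase-end partners, 12 had a positive fold change and none was called by limma, with 6 at an unadjusted p under 0.05 and a median of 0.25. In level-matched values 8 were positive and the median was 0.13. The smallest p-values were those of Speg, a muscle kinase with titin-like domains (log2 fold change 0.48, limma adjusted p = 0.0529; level-matched 0.13), and Fhl2, a LIM protein that binds titin (0.57, limma adjusted p = 0.0729). Of 13 measured titin spring and Z-disc partners, 11 had a positive fold change and none was called by limma, with 4 at an unadjusted p under 0.05 and a median of 0.21, and 0.14 in level-matched values. The smallest p-values were those of Myoz1, a calcineurin-binding Z-disc protein (0.47, limma adjusted p = 0.0518), and Csrp3, muscle LIM protein (0.51, limma adjusted p = 0.0571).

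Fold changes were positive for 8 of 11 genes of the thick filament list, with a median of 0.20. The list also holds genes whose proteins are not part of the thick filament itself. None passed as higher and 2 passed as lower. These were Mybpc3, the cardiac isoform of myosin-binding protein C, which fell by 0.55 on the log2 scale (limma adjusted p = 0.0475), and Igfn1, a gene of an immunoglobulin-like and fibronectin domain protein of muscle, which fell by 0.52 (limma adjusted p = 0.0493). Both were dim, at 4.68 and 4.10 in Ts65Dn and 5.23 and 4.62 in WT (log2), and their level-matched log2 differences were -0.34 and -0.24.

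**Figure D5:**
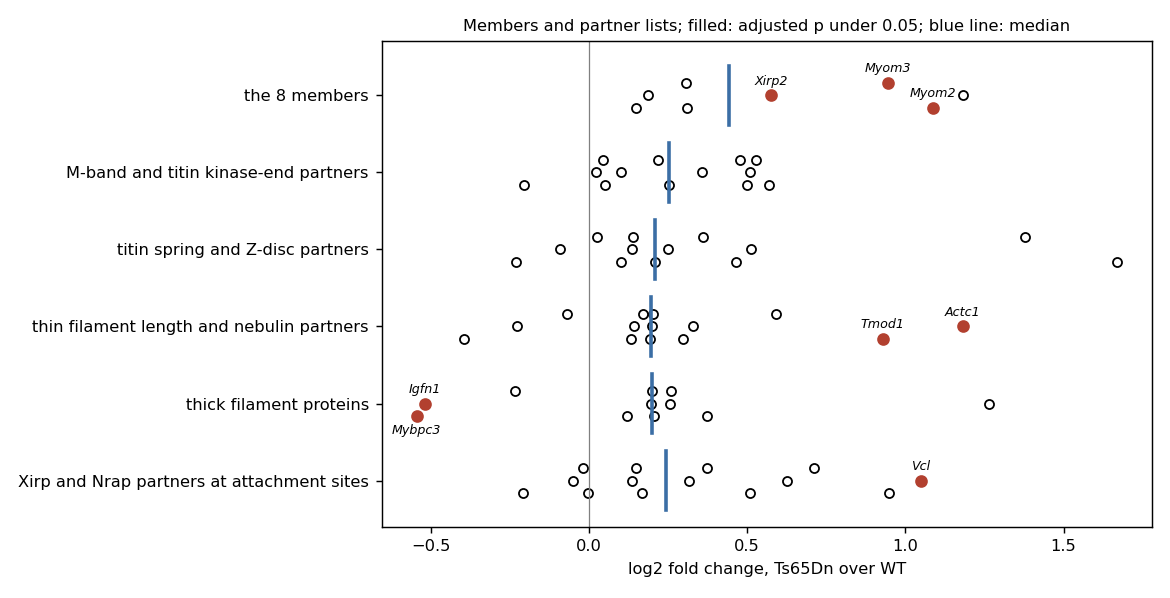
Log2 fold change of Ts65Dn over WT (horizontal axis) for the 8 members and for each measured gene of the 5 partner lists; filled circles passed at a limma adjusted p under 0.05 and are named, and blue lines are list medians. The member median is 0.44 and the list medians lie between 0.20 and 0.25.

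Some markers of other cell types moved with the groups. The 4 endothelial markers averaged 6.04 to 6.41 in Ts65Dn arrays and 5.25 to 5.80 in WT arrays (log2), with 4 of 4 fold changes positive and 1 called higher, Kdr, a receptor of vascular endothelial growth factor. Without Kdr the averages of the groups overlapped, and with any other single marker of the 4 left out they stayed apart. The level-matched log2 differences of the 4 markers were all positive, 0.17 to 1.27. The 5 macrophage markers averaged 4.88 to 5.52 in Ts65Dn arrays and 4.30 to 4.65 in WT arrays, with 4 of 5 positive and 1 called higher, Cd68, whose log2 fold change was 2.39. Without Cd68 the other 4 averaged 4.29 to 4.57 in Ts65Dn arrays and 4.18 to 4.37 in WT arrays, which overlap. Their log2 fold changes were -0.05 to 0.31, and their level-matched log2 differences were all positive, 0.18 to 0.55. Kdr and Cd68 were named after their values were seen. The averages of 4 fibroblast, 4 satellite cell and 3 smooth muscle markers overlapped between the groups, as did those of 3 adipocyte markers and the level of the 1 measured blood cell marker. Of the fibroblast markers, 2 of 4 were brighter in Ts65Dn and 1 was called higher, Pdgfra, also named after its values were seen. Pdgfra rose by 0.62 in log2 units (adjusted p from limma 0.0456) and by 0.76 after level matching. Its groups did not overlap. The 2 measured Schwann cell markers averaged 5.01 to 5.22 in Ts65Dn arrays and 5.23 to 5.58 in WT arrays, with neither gene called, and their level-matched differences were 0.01 for Mbp and -0.20 for Sox10. The part of these shifts in the members' values was not tested.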

How the data were processed

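Total RNA was taken from 1 soleus sample per mouse and hybridised to 8 arrays, 4 per group. Per the submitters' processing notes, the authors used Affymetrix Expression Console 1.1 with RMA, at gene level per the labels. From their range, the deposited values are on a log2 scale, with genes not centred. Which build and annotation they used is not given in the sources used here. Of 35556 probe sets, 21789 have 1 gene symbol, 1621 several and 12146 none, and RefSeq (GRCm38.p6) gave current symbols by Entrez identifier for 21698. Raw scanner output was not analysed here. The probe set with the highest mean was kept for each of 19938 genes.

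Groups were compared over all genes with limma 3.58.1 in R 4.3.3 (lmFit, eBayes, two-sided, Benjamini-Hochberg, threshold 0.05), without covariates. For level matching, each array's median deviation over the 100 non-member genes nearest in mean level was subtracted. Tests were checked on simulated data. Members and lists were chosen with earlier results of these data known. Genes named are the 8 members, for each the 2 genes most like it, and of each partner list the called genes or otherwise the 2 with the smallest p. Any other gene given with values is marked as picked afterwards, apart from Mbp and Sox10, the 2 measured Schwann cell markers. Python 3.11.15, pandas 2.3.3 and matplotlib 3.10.9 made tables and plots. Alternatives were other scalings, level matching, leaving out dim genes, averaging probe sets, a replicate block, weighted arrays, a robust intensity trend and leaving out arrays. Adjusting all probe sets together was added after seeing the data.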

Additional observations from a re-analysis of the deposited data

Results flagged for a closer look

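Vcl had a value of 6.39 in Ts65Dn array 3, far below the other 3 Ts65Dn arrays, which lay between 6.82 and 6.87. Myh4, the gene of the fastest myosin heavy chain, chosen after its values were seen, was at 10.52 in Ts65Dn array 4, far above 6.22 to 6.76 in the other Ts65Dn arrays and 5.89 to 6.44 in the WT arrays (log2). Chance alone sets a sample apart in this way in about 1 in 20 groups. Without Ts65Dn array 4 the log2 fold changes were 1.03 for Myom2 and 0.94 for Myom3, and the part of Myh4 in the members' values was not tested.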

How the results depend on the processing

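All 8 members kept a positive fold change under the 19 alternatives, except Ttn, which was at -0.00756 without WT array 3, the lowest of -0.00756 to 0.311 with single arrays left out, and at -0.0749 without WT arrays 2 and 3 together. The number of genes called by limma, 1049, was 1 with quantile normalization, 135 with cyclic loess, 90 with level matching, 436 among genes above the median level, 236 with array weights, 1 without WT arrays 2 and 3, and 0 to 2865 with single arrays left out. Calls higher in Ts65Dn made up 44.0% of all calls, and 94.3% with arrays centred on their median, 86.7% with cyclic loess, 82.2% with level matching and 67.4% with array weights. With all probe sets adjusted together 0 genes passed, with 6462 at an unadjusted p under 0.05. The number of members called, 3, was 0 with quantile normalization, cyclic loess, level matching, all probe sets adjusted together and without WT arrays 2 and 3, and 1 with array weights, Myom2. It was 0 to 4 with single arrays left out, and 4 without WT array 1 and with arrays centred on their median, where Xirp1 passed too. For these changes the cause was not tested.

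Myom2 had a larger fold change than Xirp1 with level matching, 0.86 against 0.76, and smaller with all arrays as deposited, 1.09 against 1.18.

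The labels number the replicates alike in both groups without saying that a number pairs mice, and mouse numbers in the sample descriptions lie close together for same-numbered samples of the groups. Same-numbered arrays correlated at 0.01 to 0.09 in their deviations from the group means. Arrays 3 and 4 of both groups were closest to the same number in the other group, and arrays 1 and 2 were not. With the replicate block 0 genes and 0 members passed limma's test, with 7014 genes at an unadjusted p under 0.05 and a smallest adjusted p of 0.0530.

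With single arrays left out, the group difference ran from 0.69 to 0.87 for Myom2 minus Myom1, from 0.55 to 0.74 for Myom3 minus Myom1, from 0.04 to 0.33 for Myom2 minus Myom3, from -0.84 to -0.33 for Xirp2 minus Xirp1 and from -0.0930 to 0.0348 for Ttn minus Neb. The last was 0.00769 without Ts65Dn array 4 and 0.0348 without WT array 1, opposite in sign to the value with all arrays. Without Ts65Dn array 3 the first 2 differences and Xirp2 minus Xirp1 passed (exact permutation p adjusted to 0.0476). With level matching the differences were 0.62, 0.34, 0.28, -0.27 and -0.11 in the same order, with quantile normalization 0.57, 0.42, 0.15, -0.39 and -0.09, and without WT arrays 2 and 3 together 0.91, 0.51, 0.40, -0.55 and -0.15. None of these passed. Permuted within replicate numbers, as a replicate block, no p could fall below 0.125. Centring cannot move these differences and was not run.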

Other observations

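Some partner genes that did not pass limma's test are named here after their values were seen, because their fold changes were as large as those of the members. Ankrd1, a stress-responsive ankyrin repeat protein that binds titin's spring region, was at 7.57, 5.71, 6.10 and 7.99 in Ts65Dn arrays 1 to 4, against 5.48, 5.61, 4.25 and 5.37 in WT arrays 1 to 4 (log2 fold change 1.67, limma adjusted p = 0.0598). The groups did not overlap, with Ts65Dn array 2 close to WT array 2. Actn3, the alpha-actinin of fast fibres, was at 7.48 ± 1.36 in Ts65Dn and 6.10 ± 0.96 in WT (log2, SD, n = 4 each), with overlapping groups (log2 fold change 1.38, limma adjusted p = 0.148). Its values were 7.76, 6.77, 6.14 and 9.26 in Ts65Dn arrays 1 to 4, against 6.25, 7.33, 5.80 and 5.04 in WT arrays 1 to 4. The highest was in Ts65Dn array 4, the array in which Myh4 stood apart. Flnc, filamin C, a binding partner of the Xin-repeat proteins, was at 8.63 ± 0.38 in Ts65Dn and 7.68 ± 0.47 in WT (log2, SD, n = 4 each), with no overlap between the groups (log2 fold change 0.95, limma adjusted p = 0.0518).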
